A study of Mus musculus with 5 samples.

Results

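Proteins begin to be processed while they are still attached to the ribosome, and 10 mouse genes that carry out or assist the first steps were examined in ribosome footprints of embryonic stem cells. The genes were chosen by name. They are Naca and Btf3, which encode the nascent polypeptide-associated complex, Dnajc2 and Hspa14, which encode the ribosome-associated complex, Metap1 and Metap2, the cytosolic methionine aminopeptidases, Naa10, Naa15 and Naa50, subunits of the NatA and NatE acetyltransferases, and Nmt1, an N-myristoyltransferase. They are 10 of the 21870 genes with a protein-coding transcript in the deposited table. Each gene is represented by its protein-coding transcript with the highest mean level over the libraries, called the highest transcript below, with coordinates on GRCm38, and all 10 passed the filter of 1 CPM (reads scaled to the library total times its TMM factor) in at least 1 library.

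The nascent polypeptide-associated complex sits at the exit of the ribosomal tunnel and shields the emerging chain, and the ribosome-associated complex recruits and stimulates Hsp70 there. Methionine aminopeptidases remove the first methionine when the second residue is small. N-terminal acetyltransferases modify the N-terminal end of the chain, and N-myristoyltransferases attach a fatty acid to chains with an N-terminal glycine. AHARIBO captures ribosomes through azidohomoalanine (AHA), a methionine analogue that can be built into the nascent peptide at any methionine codon.

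The study compared 3 libraries of standard RIBO-seq, in which ribosomes were spun through a 30% sucrose layer, with 2 libraries of AHARIBO RIBO-seq, in which AHA-bearing nascent peptides were coupled to biotin (50 µM dibenzocyclooctyne reagent) and pulled down on magnetic beads. The question asked here was how far footprints taken through the nascent chain match those of all sedimented ribosomes. All 5 were libraries of undifferentiated mESCs, numbered as replicates in their titles (the study's methods name the 46C line for its other experiments). The cells were grown with LIF, a cytokine that maintains self-renewal, and pre-treated with cycloheximide, an inhibitor of elongation. Unprotected RNA in every lysate was removed in 45 min with 1.3 U of RNase I. The study describes standard RIBO-seq as run on the input of the pulldown, which would be lysate of AHA-treated cells, and the labels do not say which libraries, if any, came from the same lysate. The counts of a library summed to 6403651 to 11150527 after removal of duplicates, with reads that fit several transcripts apparently counted on each, and to 2477835 to 4172222 over the highest transcript of every gene. A count of 3, taken as the floor, equalled 0.262 to 0.476 CPM. All 10 embryonic stem cell markers examined reached 1 CPM, with summed levels of 1504 to 1598 CPM in standard and 1341 to 1467 CPM in AHARIBO libraries, against at most 6.35 CPM for fibroblast, 8.57 CPM for endoderm and 48.7 CPM for neuron markers. Among the fibroblast markers, Lum was at 0 reads. Whether the lower stem cell marker sum in AHARIBO bears on the genes below was not tested.

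The beginning of each coding sequence shows which residue follows the initiating methionine, the position that the aminopeptidases read. The first 30 nt of the highest transcript's coding sequence are given from the Gencode M21 transcripts (GRCm38), with the start codon and the second codon in capitals.
Naca: ATGCCCggtgaagccacagaaaccgtccct
Btf3: ATGAAAgaaacaatcatgaaccaggagaaa
Dnajc2: ATGCTGctcctgccgagcgccgcggagggc
Hspa14: ATGGCGgcgatcggcgtgcacctgggctgc
Metap1: ATGGCGgcggtggagacgcgggtgtgcgag
Metap2: ATGGCGggcgtggagcaggcagcgtccttc
Naa10: ATGAACatccgcaatgctaggcccgaagac
Naa15: ATGAAAggattaacgttgaactgtttggga
Naa50: ATGCCAggcacagttggtcatgagcatagc
Nmt1: ATGGCGgatgagagtgagacagcagtgaag

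The second codon gave alanine in Hspa14, Metap1, Metap2 and Nmt1 and proline in Naca and Naa50, residues small enough for the first methionine to be removed. It gave leucine in Dnajc2, asparagine in Naa10 and lysine in Btf3 and Naa15. In Btf3, Naa15 and Naa50 the choice of transcript decided this residue, because nearly as many reads were counted on a transcript of the same gene with another start codon.
Naa15, longer coding sequence: ATGCCGgccgtgagcctcccgcccaaggag
Btf3, longer coding sequence: ATGCGAcggacgggcgctcccacccaggcg
Naa50, most abundant other transcript: ATGAAAggtagccggatcgagctgggagat

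On these transcripts the second residue was proline in Naa15, arginine in Btf3 and lysine in Naa50. The Naa15 coding sequence of 865 codons starts at position 51416323 of chromosome 3 (plus strand), and that of 815 codons on the highest transcript starts downstream at 51438350. In the standard libraries the longer form had a mean of 46.4 CPM and the highest transcript 47.1 CPM. Reads on the common exons appear to have been counted on both, so these counts do not tell which start was used.

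In reads per kilobase of coding sequence (CPM per kb, a level that can be compared between genes), the chaperone genes and those of the N-terminal enzymes spanned a wide range. Btf3 had 288 ± 26.1 and Naca 236 ± 20.99 CPM per kb in standard RIBO-seq (SD, n = 3), and Naa50 followed with 110 ± 4.29. Naa10 (49.3), Metap2 (42.8), Nmt1 (38.8) and Hspa14 (32.1) lay in the middle, and Metap1 (20.9), Naa15 (19.2) and Dnajc2 (14.4 CPM per kb) were lowest. Averaged over all 5 libraries, each stood above at least 82.6% of 20192 genes on this scale. These include genes that did not reach the filter of 1 CPM, which 12372 genes passed. The ranges of the 3 standard libraries were apart for all neighbours in this order except Metap1 and Naa15. Over all 5 libraries Btf3 overlapped with Naca, and Metap2 with Nmt1, as well. The order depended on the length used. Per kilobase of whole transcript, the means over 5 libraries were 165 for Naca, 152 for Btf3, 31.3 for Naa10 and 27.9 for Hspa14, ahead of Naa50 (15.1), Metap2 (14.0), Dnajc2 (13.2), Nmt1 (12.1), Metap1 (9.34) and Naa15 (6.91). Naca, the alpha subunit, and Btf3, the beta subunit, also lost the most reads as duplicates, 54.8 to 65.1% and 51.0 to 65.1% per library, against 43.3 to 47.7% of all reads. With duplicates kept, Btf3 and Naca stood at 350 and 303 CPM per kb over the 5 libraries, and the other 8 genes were lower than without duplicates, from 81.9 for Naa50 to 14.4 for Metap1, 13.6 for Naa15 and 9.73 for Dnajc2, so that the range of levels was wider.

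**Figure D1:**
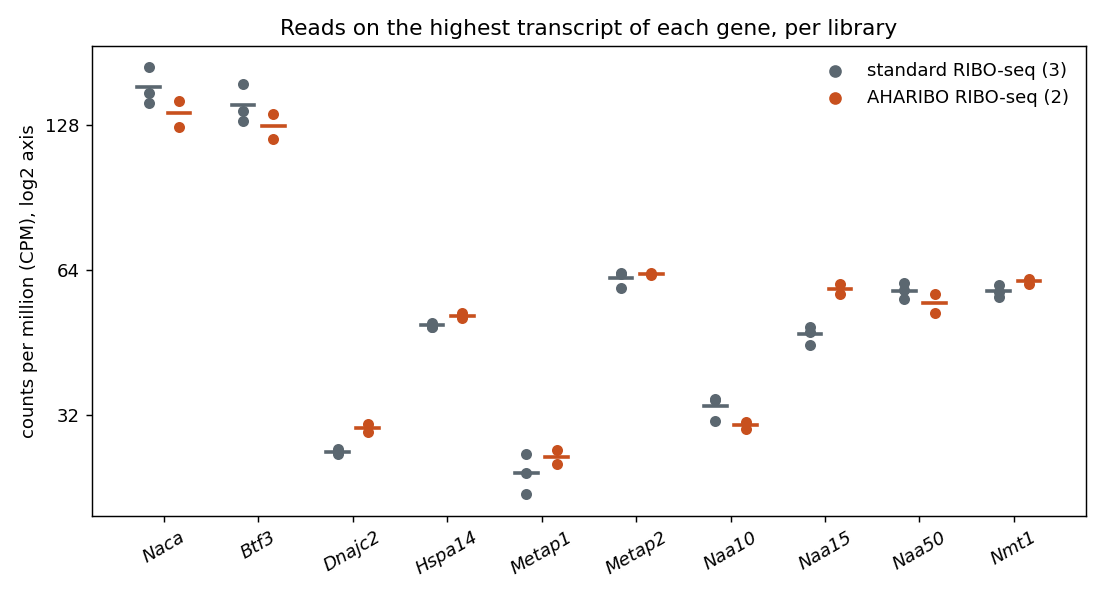
Reads in CPM (vertical axis, log2 scale) on the highest transcript of each of the 10 genes, with 1 point per library and a bar at the mean of the 3 standard (grey) and 2 AHARIBO (orange) libraries. On this log2 scale Naa15 shows the widest gap between the group means, 47.1 against 58.5 CPM, while the points of Naca, Btf3, Metap1, Metap2 and Naa50 overlap.

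Both subunits of the nascent polypeptide-associated complex had somewhat lower means in AHARIBO RIBO-seq, with overlapping libraries. Naca (chromosome 10, 128035575 to 128048633) was at 149, 142 and 168 CPM in the standard libraries and at 127 and 143 CPM in the AHARIBO libraries. The AHARIBO value of 143 CPM lay above the lowest standard library, and the log2 fold change of -0.18 (SE 0.08) did not pass the test (adjusted p = 0.216, edgeR's quasi-likelihood test with Benjamini-Hochberg adjustment over 66972 transcripts). Btf3 (chromosome 13, 98309897 to 98317006) was at 137, 130 and 155 CPM against 119.3 and 134.6 CPM, again with overlap, and its log2 fold change was -0.15 (SE 0.08, adjusted p = 0.341 in the same edgeR test). With duplicate reads kept, the Btf3 means were 167 CPM in standard and 177 CPM in AHARIBO libraries, so its direction turned.

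Many of these reads could have come from copies of the genes. In Naca, 94.2% of the 30-nt windows of the coding sequence occur in a transcript of another gene, the processed pseudogenes Gm6863, Gm12482 and Gm7539, and in Btf3 87.4% do, in 15 other genes. The counts on Gm6863 (121 CPM) and Gm12482 (66.7 CPM in the standard libraries) accordingly cannot be told apart from those of Naca. The long Naca transcript, which encodes the muscle form skNAC in a coding sequence of 2187 codons, was counted at 140, 132 and 156 against 121 and 134 CPM (log2 fold change -0.16, SE 0.08, edgeR adjusted p = 0.281). These values lie close to those of the short form, with which it shares 591 coding windows.

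Dnajc2, the J-domain protein of the ribosome-associated complex (chromosome 5, 21757267 to 21785251), was at 27.2, 26.9 and 26.7 CPM in standard and 29.6 and 30.7 CPM in AHARIBO RIBO-seq. Both AHARIBO libraries lay above all standard ones, but the log2 fold change of 0.16 (SE 0.09) did not pass the test (edgeR adjusted p = 0.366). Its partner Hspa14, an Hsp70 family member (chromosome 2, 3488850 to 3512814), showed the same arrangement at 48.7, 49.8 and 48.9 against 50.8 and 52.0 CPM, with a log2 fold change of 0.07 (SE 0.08, edgeR adjusted p = 0.737). In Dnajc2, 28.2% of the coding windows are shared with the pseudogene Gm18913, which itself was higher in AHARIBO (3.11 against 5.75 CPM, log2 fold change 0.84, edgeR adjusted p = 0.0101).

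The aminopeptidases differed by less than their spread. Metap1 (chromosome 3, 138458956 to 138489515) was at 22.0, 24.3 and 26.7 against 27.1 and 25.4 CPM (log2 fold change 0.12, SE 0.10, edgeR adjusted p = 0.537). Metap2 (chromosome 10, 93858489 to 93889814) was at 58.8, 62.7 and 63.1 against 62.4 and 63.0 CPM (log2 fold change 0.03, SE 0.08, edgeR adjusted p = 0.899). In both genes an AHARIBO library lay within the range of the standard libraries, and the 95% intervals of the fold, 0.95 to 1.25 for Metap1 and 0.91 to 1.14 for Metap2, leave room for a difference in either direction. In Metap2, 47.2% of the coding windows occur in 7 other genes, among them the pseudogene Gm9333, counted at 33.3 CPM in standard and 33.5 CPM in AHARIBO libraries, so reads of the copies may be included in its level and in its ratio to Metap1, which shares no coding window with another gene. The share was 12.9% in Hspa14, 2.53% in Nmt1 and 0 in Naa50.

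Among the acetyltransferase subunits, Naa15 was the member that changed. Naa15, the auxiliary subunit that anchors NatA to the ribosome (chromosome 3, 51415148 to 51476507), was at 47.7, 44.7 and 48.9 CPM in standard and at 59.8 and 57.1 CPM in AHARIBO RIBO-seq. Both AHARIBO libraries exceeded every standard library, and the gene was 1.25-fold higher (95% interval 1.11 to 1.39, log2 fold change 0.32, SE 0.08, edgeR adjusted p = 0.0166). DESeq2 gave a log2 fold change of 0.31 with an adjusted p of 0.138. Without AHARIBO replicate 1, standard replicate 1 or standard replicate 2 the edgeR adjusted p was 0.231, 0.0897 or 0.0751, with log2 fold changes of 0.28, 0.33 and 0.28, and with the gene's protein-coding transcripts summed it was 0.0728 (0.36). None of the coding windows of Naa15 is found in another gene. The transcript with the longer coding sequence was also higher (log2 fold change 0.31, SE 0.08, edgeR adjusted p = 0.0198), as was a short protein-coding transcript of the gene (0.46, SE 0.13, edgeR adjusted p = 0.0271), and both share most of their coding windows with the highest transcript.

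Naa10, the catalytic subunit of NatA (chromosome X, 73916875 to 73921924), lay on the other side, at 34.5, 31.1 and 34.6 against 31.1 and 30.1 CPM. Both AHARIBO libraries were below all standard libraries, the upper by a margin smaller than the spread, and the log2 fold change of -0.12 (SE 0.09) did not pass the test (edgeR adjusted p = 0.496). In 59.3% of its coding windows Naa10 shares sequence with other genes, and 19.1% of the windows occur in more than 10 transcripts, the default limit on alignments per read in STAR. Over all protein-coding transcripts, 71.8% of the 71 with every window in more than 10 transcripts had no reads, against 15.3% of those with 1 to 50% of such windows, the class of Naa10, and 10.2% of those with none. The share of Naa10 reads lost in this way was not measured. Naa50, the acetyltransferase that joins NatA in NatE (chromosome 16, 44139830 to 44162474), overlapped at 60.3, 55.7 and 58.1 against 52.1 and 57.1 CPM (log2 fold change -0.09, SE 0.08, edgeR adjusted p = 0.618).

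Nmt1 (chromosome 11, 103028346 to 103068912) was at 57.6, 59.5 and 56.3 CPM in standard and 59.9 and 61.3 CPM in AHARIBO RIBO-seq. Both AHARIBO libraries were above all standard libraries, the nearest by a margin smaller than the SDs of 1.60 and 0.98 CPM, and the log2 fold change of 0.07 (SE 0.08) did not pass the test (edgeR adjusted p = 0.725).

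In all, 1 of the 10 genes was called by edgeR at an adjusted p under 0.05, in the direction of AHARIBO, where the background was 5.12% of 12372 genes by the same rule (2.59% higher, 2.53% lower). DESeq2 called 0 of the 10 (background 0.614%, with genes lacking a DESeq2 adjusted p counted as not called), and the unadjusted edgeR p was under 0.05 in 2 of the 10 (background 19.4%). Both AHARIBO libraries lay above all standard libraries in 4 genes (background 17.2%) and below in 1 (background 17.1%). The median log2 fold change was 0.05 over the 10 genes and -0.003 over all 12372.

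Levels of partners were compared within each library as a ratio of reads per kilobase of coding sequence, on the log2 scale, with an exact two-sided permutation test over the 5 libraries, whose smallest possible p is 0.1. The Naa10 to Naa15 ratio was 1.38, 1.33 and 1.35 in the standard libraries and 0.91 and 0.93 in the AHARIBO libraries, without overlap. The level of Naa10 was 2.56 times that of Naa15 in standard and 1.89 times in AHARIBO RIBO-seq, a log2 difference of -0.44 (exact permutation p = 0.1, n = 3 and 2), against SDs of 0.03 and 0.01. The ratio itself depends on the length used: per kilobase of whole transcript the means over 5 libraries were 31.3 and 6.91. The difference was -0.44 with either length. Reads of copies may enter the ratio, since 59.3% of the coding windows of Naa10 occur in other genes and 0% of those of Naa15. Of the pairs compared, this one differs most in coding length (225 against 815 codons).

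The other ratios shifted less. Btf3 over Naca was 0.28, 0.28 and 0.29 against 0.32 and 0.32, a difference of 0.03 with SDs under 0.01 (exact permutation p = 0.1) that was 0.15 with duplicate reads kept and 0.05 with summed transcripts. Dnajc2 over Hspa14 was -1.13, -1.17 and -1.16 against -1.07 and -1.05, a difference of 0.09 (exact permutation p = 0.1) that was 0.04 with duplicate reads kept (exact permutation p = 0.7) and turned to -0.01 when all protein-coding transcripts of each gene were summed. Metap1 over Metap2 overlapped, at -1.11, -1.06 and -0.94 against -0.89 and -1.01 (difference 0.09, exact permutation p = 0.4), and the difference was -0.03 with duplicate reads kept, 0.0003 with summed transcripts, 0.03 without AHARIBO replicate 1 and 0.14 without AHARIBO replicate 2. Adjusted over the 4 ratios, the exact permutation p was 0.133 for the first 3 and 0.4 for the last.

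**Figure D2:**
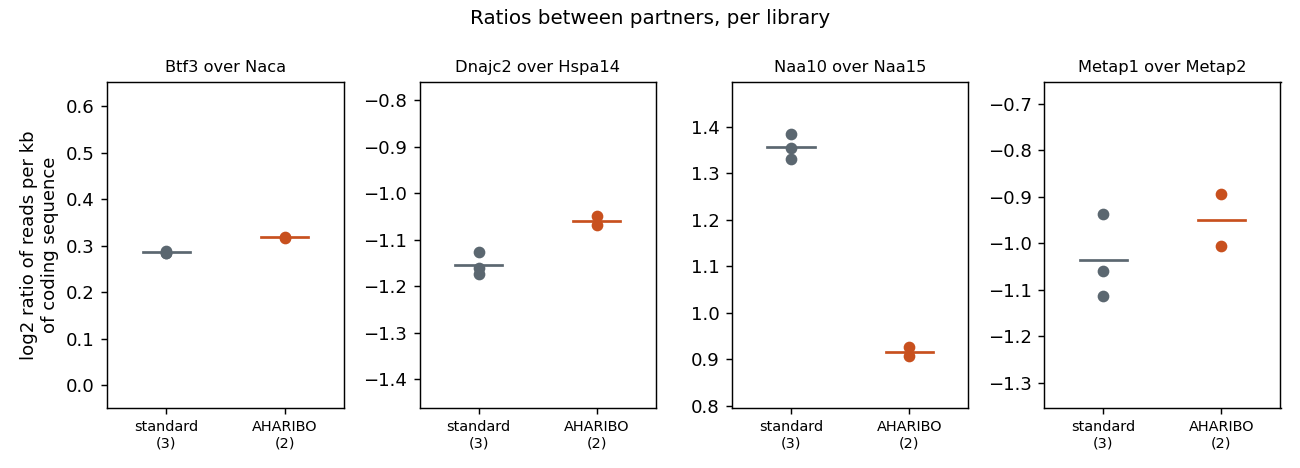
Log2 ratio of reads per kb of coding sequence between partner genes (vertical axes, each spanning the same width), with 1 point per library and a bar at each group mean. The Naa10 to Naa15 ratio has a mean of 1.36 in the 3 standard and 0.92 in the 2 AHARIBO libraries, and the other means differ by at most 0.09.

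The fold changes of the 10 genes followed the length of their coding sequences. The 4 shortest, Btf3 (162 codons), Naa50 (175), Naca (215) and Naa10 (225), were the 4 with negative log2 fold changes, -0.09 to -0.18. The 6 others, from Metap1 (386 codons) to Naa15 (815), had positive values of 0.03 to 0.32. Across the 10 genes Pearson's r between the log2 fold change and log2 coding length was 0.92 and Spearman's rho 0.85, given as a description, since genes share libraries and normalization and are not independent replicates. The number of methionine codons, 3 in Naa50 to 20 in Naa15, followed coding length (r = 0.85) and gave an r of 0.81 with the fold change, so the length of the chain and its number of AHA positions cannot be told apart here. With duplicate reads kept r with coding length was 0.83.

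The same order, with a wide spread, was present over all genes. Among 11562 genes with a complete coding sequence, the median log2 fold change was -0.09 in the quartile of up to 285 codons, -0.03 up to 463, 0.02 up to 745 and 0.10 above, and r with log2 coding length was 0.22. In the longest quartile, to which Naa15 belongs, 6.44% of genes were called higher and 0.10% lower. In the shortest, which holds Btf3, Naa50, Naca and Naa10, 0.66% were called higher and 6.32% lower. The class of the second residue moved less, with medians of -0.01 for genes with a small second residue (7021) and 0.02 for the rest (4541).

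**Figure D3:**
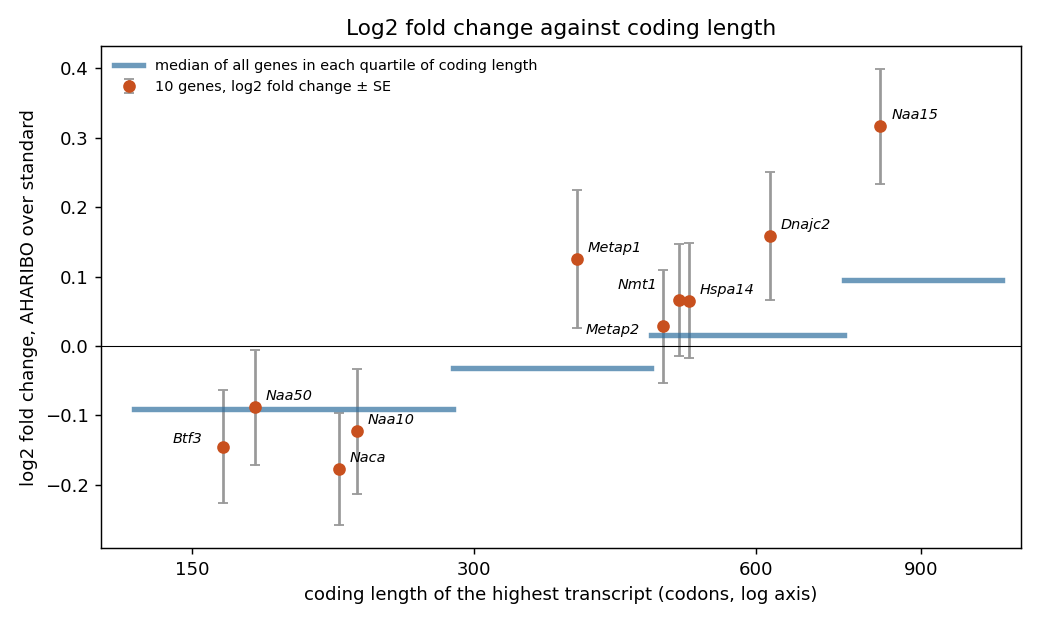
Log2 fold change of AHARIBO over standard RIBO-seq (vertical axis, bars ± SE) against the coding length of the highest transcript in codons (horizontal axis, log scale) for the 10 genes, with the median of all genes in each quartile of coding length (blue, drawn within the plotted range). The 4 genes with up to 225 codons lie below 0 and the 6 with 386 or more above.

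The deposited table holds no positions of footprints, but many transcripts of these genes contain only a stretch of the main coding sequence. Reads from that stretch appear to have been counted on them too. Of the genes' other transcripts, 60 passed the filter and shared at least 50 of the 30-nt coding windows with the highest transcript. Many of them also hold sequence outside that coding sequence, and reads there enter their counts. This comparison was set up after the values had been seen, and transcripts of a gene appear to share reads, so it was described without a test. In 17 transcripts from 7 genes the shared stretch lay within the first 50% of the coding sequence (the 5′ part), and 13 of them had a log2 fold change below that of the gene's highest transcript (median difference -0.14). In 11 transcripts from 5 genes it lay within the last 50% (the 3′ part), and 8 had a value above it (median difference 0.15). The 32 that spanned the middle were split evenly, 16 above and 16 below. Over all genes by the same rule, 34.6% of 12750 transcripts of the 5′ part and 64.3% of 6507 of the 3′ part lay above the highest transcript of their gene.

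Fragments of Naa10 and Naa15 were the ones that passed the test. Naa10 has retained-intron transcripts of its 5′ end. One, with 131 of its 620 windows in the coding sequence and covering 5.2 to 24.3% of the coding sequence, was at 14.6, 12.5 and 14.4 CPM in standard and 9.27 and 10.3 CPM in AHARIBO libraries (log2 fold change -0.50, SE 0.13, edgeR adjusted p = 0.0179). The other, with 91 of 326 windows there and covering 2.2 to 15.5%, was at 12.9, 10.5 and 12.9 against 8.57 and 8.99 CPM (-0.45, SE 0.14, edgeR adjusted p = 0.0466). In both, the AHARIBO libraries lay below all standard libraries. A Naa10 transcript that covers 36.4 to 97.8% had a log2 fold change of 0.14 (SE 0.14, edgeR adjusted p = 0.642).

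In Naa15 a retained-intron transcript at 57.4 to 75.2% of the coding sequence was at 5.15, 3.75 and 3.33 against 7.09 and 6.99 CPM (log2 fold change 0.76, SE 0.18, edgeR adjusted p = 0.0094). A processed transcript at 74.0 to 90.7% was at 8.29, 9.27 and 8.41 against 13.2 and 11.6 CPM (0.52, SE 0.14, edgeR adjusted p = 0.0166). Of the 60 transcripts, 4 were called higher, all of Naa15, and 2 lower, both of Naa10, against 4.51% of all 66972 transcripts tested (2.27% higher, 2.24% lower). Naa15 did not follow the pattern at its 5′ end: its 3 transcripts of the 5′ part had log2 fold changes of 0.24, 0.35 and 0.46, and 2 of them, among them the short protein-coding one named above (4.5 to 30.6% of the sequence), lay above the highest transcript. The other exceptions among the fragments of the 5′ part included a short Metap2 transcript with 52 shared windows at 0.49 (SE 0.30, edgeR adjusted p = 0.391).

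**Figure D4:**
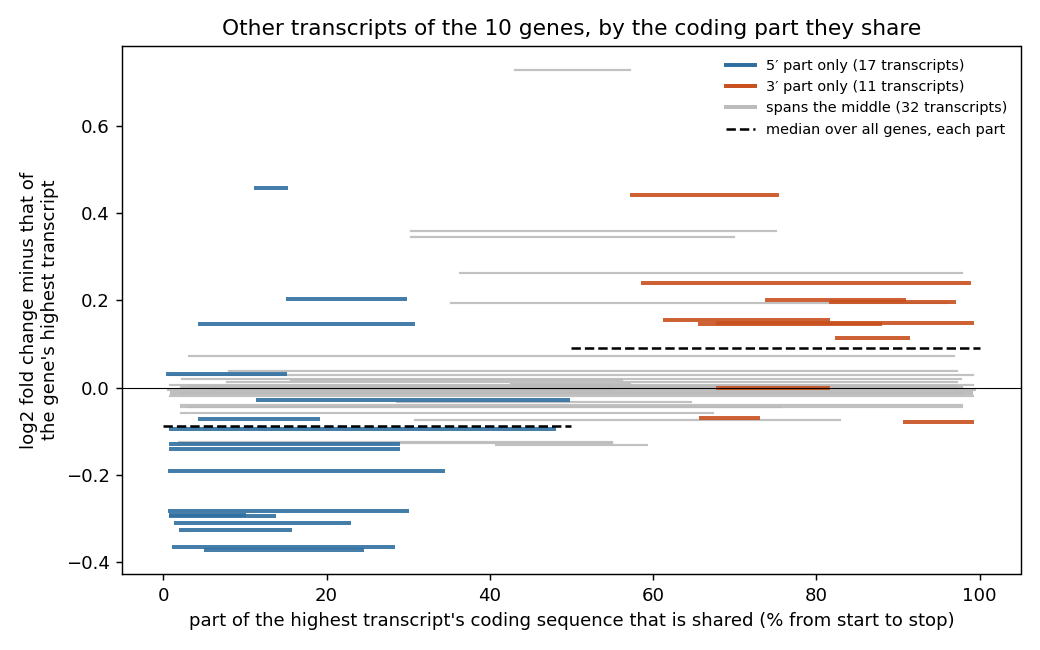
Each line is 1 of 60 other transcripts of the 10 genes. It spans the part of the main coding sequence shared with it (horizontal axis, percent from start to stop) and stands at its log2 fold change minus that of the gene's highest transcript (vertical axis). Transcripts of the 5′ part (blue) mostly lie below 0, 13 of 17, and those of the 3′ part (orange) above, 8 of 11, on the same sides as the medians over all genes (dashed, -0.09 and 0.09).

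In 4 genes a transcript with the most reads could be taken from each part, and the log2 ratio of the 3′ part to the 5′ part was formed in each library, with 0.5 CPM added. These transcripts also hold other sequence, so the ratio is not one of coding footprints alone. In Metap1, 312 of 3679 windows (5′ transcript) and 293 of 978 (3′ transcript) were shared coding windows. In Hspa14 these were 168 of 448 and 339 of 646, and in Metap2 644 of 796 and 446 of 3005. In Naa15 they were 614 of 683 and 409 of 600. In Metap1 the ratio was -1.26, -1.01 and -1.35 in standard and -0.66 and -0.58 in AHARIBO RIBO-seq, and in Hspa14 -0.85, -0.91 and -0.97 against -0.39 and -0.58. The AHARIBO libraries lay above all standard libraries in these 2 genes, by mean differences of 0.58 and 0.42. Another 5′-part transcript of Hspa14 and another of its 3′ part, with fewer reads, went the other way. Their log2 fold changes were 0.27 (SE 0.20) and -0.01 (SE 0.23). Another 5′-part transcript of Metap1 was at -0.19 (SE 0.17), on the same side as the one used. In Metap2 the ratio was -1.17, -0.90 and -0.99 against -0.60 and -0.98, and in Naa15 -0.22, 0.03 and -0.42 against -0.06 and -0.22, with overlap in both. Their mean differences were 0.23 and 0.06. Over the 2433 genes with such a pair the median difference was 0.16, and AHARIBO lay above in 27.2% and below in 6.33%.

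**Figure D5:**
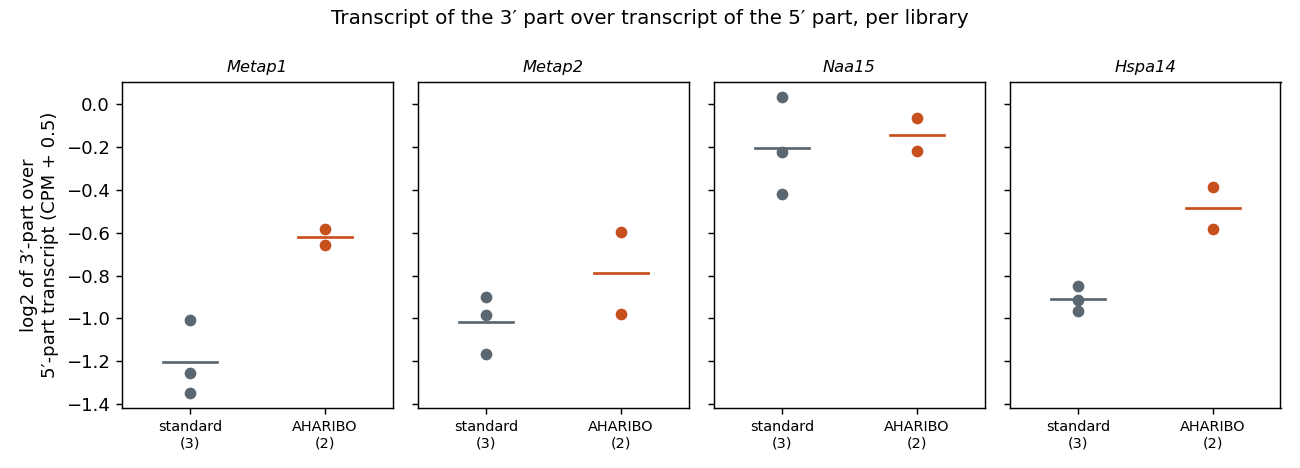
Log2 ratio of a transcript from the 3′ part to one from the 5′ part of the coding sequence (vertical axis, CPM + 0.5) in the 4 genes that have both, with 1 point per library and a bar at each group mean. The transcripts also hold sequence outside the shared coding stretch. The ratio is higher in every AHARIBO than in every standard library in Metap1 and Hspa14, and the groups overlap in Metap2 and Naa15.

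Other genes of nascent chain processing, 34 in a wider list, were read in the same fit. Of 33 tested, 0 were higher and 3 lower at an adjusted p under 0.05 (background 2.59% and 2.53%), and 6 had an unadjusted edgeR p under 0.05 (18.2%, background 19.4%). DESeq2 gave an adjusted p for 23 of the 33, none under 0.05, and of the 3 called by edgeR only for Naa30 (0.249), so Pdf and Naa11 could not be called by it. Its log2 fold changes for the 3 were -0.71 for Pdf, -0.52 for Naa11 and -0.39 for Naa30. The median log2 fold change was 0.01. Nacad, a relative of Naca, stayed under 1 CPM in every library and was not tested.

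The mitochondrial peptide deformylase Pdf, which removes the formyl group ahead of methionine cleavage, fell from 8.32 ± 1.30 to 5.15 ± 0.64 CPM (SD, n = 3 and 2), a log2 fold change of -0.71 (SE 0.17, edgeR adjusted p = 0.00847). Naa11, a paralogue of Naa10 with which it shares sequence, fell from 10.2 ± 1.38 to 7.16 ± 0.60 CPM (log2 fold change -0.53, SE 0.15, edgeR adjusted p = 0.0314). Naa30, the catalytic subunit of NatC, fell from 19.0 ± 1.92 to 14.6 ± 0.38 CPM (log2 fold change -0.38, SE 0.11, edgeR adjusted p = 0.0404). In all 3 genes both AHARIBO libraries were below every standard library. Without standard replicate 1 none of the 3 was called, without AHARIBO replicate 1 only Pdf was, and without AHARIBO replicate 2 only Naa11 was. With library-size scaling, duplicates kept or 1 transcript per gene only Pdf was called, and with summed transcripts none of the 3.

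The most abundant gene of each group of the wider list, in reads per kilobase of coding sequence, did not pass the test apart from Pdf. Hspa8, the Hsp70 that works with the ribosome-associated complex, had 289 ± 12.8 CPM per kb in standard and 268 ± 23.1 in AHARIBO RIBO-seq, a level near that of Btf3. Btf3l4, a paralogue of Btf3, had 49.6 ± 4.34 and 58.1 ± 0.39 CPM per kb, with both AHARIBO libraries higher (log2 fold change 0.24, SE 0.10, edgeR adjusted p = 0.156). Hypk, a regulator of NatA, had 63.1 ± 8.99 and 62.8 ± 1.24 CPM per kb. Srp9 of the signal recognition particle (89.2 and 83.3), the prefoldin subunit Pfdn6 (111 and 103) and the myristoyltransferase Nmt2 (17.1 and 17.5 CPM per kb) differed by log2 fold changes of -0.12, -0.10 and 0.02. In this list, the 17 genes of up to 285 codons had a median log2 fold change of -0.07 and the 14 longer ones 0.07.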

How the data were processed

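Ribosome footprints of 25 to 35 nt were sequenced from 3 standard and 2 AHARIBO libraries, numbered as replicates in their titles, so p-values measure the spread between these libraries. The titles do not say whether each came from a separate culture, and a legend of the paper counts 2 independent replicates per method. The authors trimmed reads (Trimmomatic 0.36, per the submitters' processing notes), removed rRNA and tRNA reads, aligned the rest with STAR to Gencode M17 transcripts (GRCm38.p6), and deposited raw read counts per transcript, with duplicate reads removed or kept, and transcript lengths in nt. Reads that fit several transcripts appear to have been counted on each. The counts without duplicates were the main values. Of 135276 transcripts, 99.8% were matched by identifier to Gencode M21, which gave gene names, coding lengths and positions, and the highest transcripts of the 10 genes had equal lengths in both.

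TMM factors were computed over all transcripts, those reaching 1 CPM in any library were kept, and groups were compared with edgeR 4.0.16 (glmQLFit, glmQLFTest, R 4.3.3) and Benjamini-Hochberg adjustment over all 66972, at 0.05. Intervals of 95% were taken from the SE of this fit. DESeq2 1.42.0, library-size scaling, TMM after the filter, no filter, duplicates kept, a replicate block, 1 transcript per gene, summed transcripts and each library left out were the alternatives. The floor of 3 reads covers counting error only. Counts were simulated with these means and library sizes over 66972 transcripts, with the same dispersion for every transcript. Changes were placed only in transcripts with a mean of at least 50 reads, so recovery at lower counts was not measured. Among these, edgeR recovered 16% of 50 changes of 1.25-fold, 66% of those of 1.5-fold and 100% of those of 2-fold.

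Shared sequence was counted in windows of 30 nt by exact match, and window positions in the highest transcript's coding sequence gave the positions of other transcripts. The 10 genes, the wider list and the markers were chosen with earlier results of these data known. Named genes were the 10, the called genes of the wider list and its most abundant gene per group, and the called other protein-coding transcripts of the 10 genes with the longest Naca transcript. Transcripts and copies beyond this rule were named after their values were seen. Sequences were copied from the Gencode M21 transcripts, and protein sequences were not used here.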

Additional observations from a re-analysis of the deposited data

How the results depend on the processing

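Of 130 log2 fold changes of the 10 genes under alternative settings, 123 kept their direction and their side of the threshold, 5 of Naa15 lost the call, and 2 turned direction: Btf3 was at 0.0827 with duplicate reads kept, and Metap2 ranged from -0.0049 to 0.0451 when single libraries were left out (reversed without standard replicate 1). The 1 call among the 10 genes became 0 with DESeq2 and with summed transcripts (Naa15 log2 fold change 0.36, edgeR adjusted p = 0.0728), and ranged from 0 to 1 when single libraries were left out. The 3 calls in the wider list became 1 with 1 transcript per gene, 1 with duplicates kept, 1 with library-size scaling, 0 with summed transcripts and 0 to 3 without single libraries. DESeq2 called 0 of them, but gave an adjusted p for 1 of the 3 (Naa30), with folds close to those of edgeR. The NAC ratio difference was 0.15 with duplicates kept and 0.05 with summed transcripts. The METAP ratio difference turned to -0.0319 with duplicates kept and the RAC ratio difference to -0.0103 with summed transcripts. The cause of these changes was not tested. Over transcripts, the difference between replicates 1 and 2 in standard RIBO-seq had a correlation of -0.04 with that in AHARIBO RIBO-seq. Standard replicates 1 and 2 differed by little more than counting error, so this value cannot tell whether replicate numbers pair the libraries. With a replicate block, 1 of the 10 genes (Naa15) and 3 genes of the wider list were called, and the ratio differences within replicate numbers 1 and 2 were 0.03 for NAC, 0.09 for RAC, -0.44 for NatA and 0.14 for METAP. The relation with coding length over the 10 genes, recomputed after the data had been seen, gave r of 0.83 to 0.94 over all settings. The counts of transcripts on the named side ranged from 13 to 14 of 17 (5′ part) and from 8 to 11 of 11 (3′ part; 9 of 10 with duplicates kept). With 2 AHARIBO libraries, changes near 1.25-fold were mostly not detectable.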
